A study of Mus musculus with 28 samples.

Results

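The 10 genes described here encode the enzymes that build purine nucleotides from small precursors in mouse regulatory T (Treg) cells: Prps1, Ppat, Gart, Pfas, Paics, Adsl, Atic, Impdh1, Impdh2 and Gmps. They were chosen by name as the members of this pathway, by a rule that uses no measured value, although earlier results of these data were known when it was written. Each was matched through its Ensembl ID to 1 of the 43430 gene IDs in the count tables. All 10 were found, and all 10 passed the filter on low counts in every comparison.

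Treg cells are CD4 T cells that carry the transcription factor Foxp3 and restrain other immune cells. The study asked what complex III of the mitochondrial respiratory chain does in them, and its 28 libraries come from cells sorted as CD4+ YFP-Foxp3+ CD25+ from C57BL/6NJ mice, in 3 count tables. The first table holds RISP_WT and RISP_KO (4 libraries each) from mice of 3 weeks. RISP is the Rieske iron-sulfur protein of complex III, encoded by Uqcrfs1. The second holds RISP_Chimera_WT and RISP_Chimera_KO (4 libraries each), with the same genotypes, from chimeras of 8 to 12 weeks. The third holds RISP WT cells of 3-week-old mice in vitro, untreated or exposed to 1 µM Piericidin, 500 µM 3-NPA or 1 µM AntimycinA (3 libraries each). Piericidin blocks complex I, 3-NPA (3-nitropropionic acid) blocks complex II and antimycin A blocks complex III. The labels do not state the exposure time, what drives the deletion, or which host cells the chimeras kept. They also do not say whether replicates are separate mice, so the p-values rest on a spread among libraries that could be only technical.

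Purine synthesis starts from phosphoribosyl pyrophosphate (PRPP), a sugar phosphate made from ribose 5-phosphate. Enzymes then add atoms from glutamine, glycine, aspartate, bicarbonate and folate-carried formyl groups until inosine monophosphate (IMP) is complete, and a branch from IMP leads to GMP. Resting lymphocytes draw largely on salvage of ready-made purines, and the de novo route is turned up when T cells are activated and divide. Mitochondria touch the pathway through formate, aspartate and ATP. MYC is a known activator of several of its genes, and ATF4 of amino acid and one-carbon genes.

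The in vitro libraries were shallow, with totals of 2.71 to 3.45 M counts, against 28.4 to 50.8 M for mice of 3 weeks and 20.4 to 31.0 M for chimeras. The deleted gene matched its labels, since Uqcrfs1 read 5.19 to 7.27 CPM in RISP_KO against 151 to 189 in RISP_WT, and 4.83 to 11.3 in RISP_Chimera_KO against 72.7 to 87.7 in RISP_Chimera_WT. CPM here are counts of a gene per M counts of its library, with library sizes scaled by TMM within each table. Foxp3 was present in all 28 libraries, at 25.1 to 38.2 CPM in the 3-week table, 385 to 512 in the chimera table and 529 to 820 in vitro. The 3-week libraries were made with another kit (Takara) than the others (NEB), so levels are not compared between tables. In bulk RNA of this kind, fewer cells of a type and less RNA per cell cannot be told apart.

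The genes lie on 9 chromosomes (build mm10). Prps1 is at chrX:140456613-140476140 on the plus strand, Atic at chr1:71557150-71579631 (plus), Gmps at chr3:63976106-64022579 (plus), Impdh1 at chr6:29200434-29216364 (minus) and Impdh2 at chr9:108560286-108565584 (plus). Pfas is at chr11:68985697-69008460 (minus), Adsl at chr15:80948490-80970947 (plus) and Gart at chr16:91621186-91646952 (minus). Ppat (chr5:76913249-76951578, minus) and Paics (chr5:76951307-76967509, plus) lie head to head and their annotated ends overlap by 272 bases. The strand setting of the counting is not given in the sources used here, so reads in shared stretches could be split differently. This holds for genes on opposite strands: Ppat with Paics and 2310040G07Rik, Impdh2 with Ndufaf3, Gart with Gm15964, and Pfas with Gm25819. Adsl with Gm6612 and Pfas with Mir3062 overlap on the same strand, so the strand setting does not bear on those pairs. Prps1 has the copies Prps1l3 (at most 3331 counts in a library) and Prps1l1 (at most 6), and Impdh2 has the pseudogene copy Impdh2-ps (at most 51). Values of Prps1 and Impdh2 are uncertain to the extent that the counting could split reads among these copies.

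Promoter windows from 250 bases before to 50 bases after the annotated start (RefSeq, GRCm38.p6) were matched for 9 of the 10 genes, as 10 windows because Impdh1 has 2, and none is shown for Pfas. The E-box CACGTG, the sequence that MYC and related factors bind, was searched on both strands. It occurred in the windows of 3 genes, Atic, Paics and Impdh2, that is in 3 of 10 windows against 7.15% of all 32851 windows in the table. Atic, Paics and Impdh2 fell under Piericidin and AntimycinA (below), and so did Ppat, Gart, Adsl and Gmps, whose windows hold no CACGTG. Of the other genes with a window but no CACGTG, Prps1 was called lower with Piericidin only and Impdh1 with neither. A link between the motif and these changes was not tested. The matched sites are shown to give the letters behind that count. Each is given 5′ to 3′ on the plus strand with 12 bases on either side of the motif, which is in capitals:
Atic, chr1:71557137-71557166: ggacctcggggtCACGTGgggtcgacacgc
Paics, chr5:76951087-76951116: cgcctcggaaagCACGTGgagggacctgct
Impdh2, chr9:108560314-108560343: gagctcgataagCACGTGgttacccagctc
The motif began 7 bases before the RefSeq start in Atic, 203 before it in Paics and 110 before it in Impdh2. The Paics site lies within the annotated UTR of Ppat, whose start is 276 bases from that of Paics, and the other sites overlap an annotated UTR of their own gene. The composite site TTGCATCA, bound by ATF4 with a C/EBP partner, was in none of the 10 windows, against 0.895% of all windows. GCCATNTTG, bound by YY1, was also in none, against 2.51%. Member windows were richer in G and C (median 63.7%) than all windows (52.7%) and held a median of 25 CpG against 7. CACGTG itself contains a CpG, so the 7.15% over all windows is not a matched background for its count in member windows. A match is a description of letters and not a measured binding site, and a missing match says only that these letters are not in the window.

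Within a library, levels were compared between genes per kilobase of merged exons (GENCODE M21). In untreated cells in vitro, Paics had the highest level at 92.4 ± 6.40 CPM per kb (SD, n = 3), followed by Impdh2 at 81.4 ± 3.06 and Gart at 59.3 ± 3.48. Prps1 (46.6 ± 7.41), Ppat (38.2 ± 4.98), Atic (36.3 ± 1.45) and Impdh1 (34.2 ± 2.04) followed, and each overlapped its neighbour in this order. Adsl stood at 29.6 ± 3.18, below every library of Impdh1, and Pfas at 21.7 ± 0.932 overlapped Gmps at 21.0 ± 1.11. In RISP_Chimera_WT the order was led by Paics (40.8 ± 1.41, n = 4) and Impdh2 (35.0 ± 1.71) and ended with Gmps (9.18 ± 0.514) and Pfas (6.00 ± 0.719). In RISP_WT it was led by Paics (76.3 ± 4.22, n = 4), Prps1 (56.7 ± 1.44) and Impdh1 (49.5 ± 2.31) and ended with Gmps (16.9 ± 0.943), Atic (5.21 ± 0.737) and Pfas (1.31 ± 0.181). Gene length matters to this order. An alternative, chosen after seeing the data, used the length of the transcript that has the longest coding sequence. Atic in untreated cells then read 102 ± 4.07 CPM per kb of transcript and ranked 3 of 10 in place of 6. By that length Impdh2 led Paics in untreated cells (135 ± 5.06 against 117 ± 8.10). The same held in RISP_Chimera_WT (57.9 ± 2.83 against 51.5 ± 1.78), while Paics still ranked 1 in RISP_WT.

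Together the 10 genes took 0.199% ± 0.00366 (SD, n = 3) of all counts in untreated cells in vitro. The share was 0.142% ± 0.0116 with Piericidin, 0.171% ± 0.0109 with 3-NPA and 0.137% ± 0.0107 with AntimycinA. Ex vivo it was 0.122% ± 0.00705 (n = 4) in RISP_WT and 0.136% ± 0.00789 in RISP_KO, and 0.0904% ± 0.00134 in RISP_Chimera_WT and 0.0931% ± 0.00324 in RISP_Chimera_KO. The ranges of all 3 inhibitor groups lay below that of untreated cells, while in both knockout tables the ranges of the 2 genotypes overlapped. On the TMM scale used below, the summed level in the 3-week table did not overlap, at 1291 to 1451 CPM in RISP_KO against 1157 to 1276 in RISP_WT, and in chimeras it did (870 to 980 against 892 to 937).

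The first question for the inhibitors is whether blocking the respiratory chain of wild-type Treg cells changed these transcripts. Under Piericidin, 9 of the 10 genes fell and none rose (edgeR quasi-likelihood test, Benjamini-Hochberg adjusted p under 0.05 over all genes tested), against 13.6% of the 11689 genes tested (5.62% higher, 7.93% lower). Under AntimycinA, 8 fell and none rose, against 15.0% of the same genes (6.50% higher, 8.50% lower). Under 3-NPA, 1 fell and none rose, against 3.23% (1.35% higher, 1.87% lower). The median log2 fold change of the 10 genes was -0.52 with Piericidin, -0.54 with AntimycinA and -0.26 with 3-NPA, beside medians over all genes of 0.01, 0.02 and -0.01. These 3 comparisons share the untreated libraries.

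**Figure D1:**
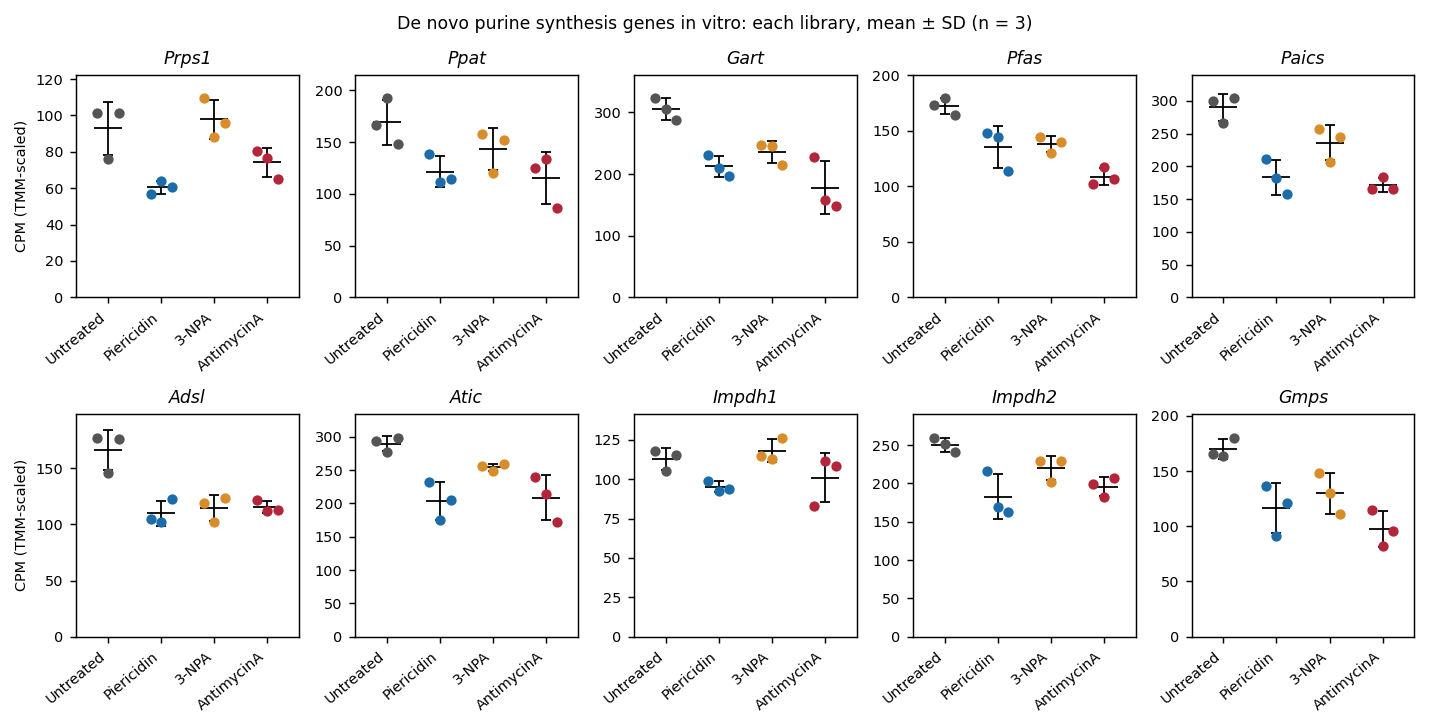
CPM (TMM-scaled, linear axis from 0) of each of the 10 genes in the 12 in vitro libraries. Points are libraries, bars the mean ± SD (n = 3). All Piericidin points lie below all untreated points in every panel (15.2% of all genes tested separate this way), and the 3-NPA points do so in 7 panels (11.4% of all genes), but not for Prps1, Ppat and Impdh1.

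Paics carries the carboxylase and SAICAR synthase steps in the middle of the pathway. It read 299, 267 and 304 CPM in the 3 untreated libraries. It read 211, 182 and 158 CPM with Piericidin, 166, 184 and 165 with AntimycinA and 257, 206 and 246 with 3-NPA. No library of an inhibitor reached the untreated range. The log2 fold change was -0.66 ± 0.11 (SE) with Piericidin (adjusted p = 2.51e-05), -0.75 ± 0.11 with AntimycinA (adjusted p = 1.44e-06) and -0.29 ± 0.10 with 3-NPA (adjusted p = 0.120, not called).

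Gart is a trifunctional enzyme that covers the GAR synthetase, AIR synthetase and GAR formyltransferase steps. Its untreated libraries read 323, 306 and 287 CPM. With AntimycinA it read 228, 158 and 148 CPM, with Piericidin 231, 210 and 196, and with 3-NPA 247, 246 and 215. All 9 inhibitor libraries lay below the untreated ones. Gart fell with AntimycinA and Piericidin, with log2 fold changes of -0.78 ± 0.11 with AntimycinA (adjusted p = 2.86e-06) and -0.53 ± 0.11 with Piericidin (adjusted p = 0.00111). With 3-NPA the log2 fold change was -0.38 ± 0.11, just short of the threshold (adjusted p = 0.0549). It was called in fits without the filter on low counts (adjusted p = 0.0186), of the 2 groups alone (adjusted p = 0.0240), with the replicate block (adjusted p = 0.0182) and without AntimycinA replicate 1, which shares the fit (adjusted p = 0.0287).

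Gmps makes GMP from XMP at the end of the guanine branch. In untreated cells it read 166, 164 and 180 CPM, against 115, 81.8 and 95.7 with AntimycinA and 137, 91.7 and 121 with Piericidin. The inhibitor libraries stayed below the untreated range in both groups. Its log2 fold change of -0.81 ± 0.14 with AntimycinA (adjusted p = 2.99e-05) was the most negative of the 10 genes in the 3 comparisons. With Piericidin it was -0.55 ± 0.14 (adjusted p = 0.00435), which was not called without Piericidin replicate 2 (-0.41, adjusted p = 0.0641). With 3-NPA it read 148, 130 and 112 CPM, for a log2 fold change of -0.39 ± 0.13 (adjusted p = 0.107).

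Impdh2 and Impdh1 encode the 2 forms of IMP dehydrogenase, the enzyme that commits IMP to GMP. Impdh2, the form associated with dividing lymphocytes, read 260, 251 and 241 CPM untreated, 217, 169 and 163 with Piericidin, and 199, 182 and 207 with AntimycinA. It fell in both, with log2 fold changes of -0.46 ± 0.10 (adjusted p = 0.00209) and -0.36 ± 0.10 (adjusted p = 0.0145). The AntimycinA call was lost without untreated replicate 1 (adjusted p = 0.0681) or AntimycinA replicate 2 (adjusted p = 0.0865). Impdh1 was called under none of the inhibitors. It read 118, 105 and 115 CPM untreated and 99.0, 92.7 and 93.9 with Piericidin, which do not overlap (log2 fold change -0.24 ± 0.13, adjusted p = 0.233). With AntimycinA it read 82.9, 111 and 108 CPM, and with 3-NPA 115, 113 and 126, both overlapping the untreated range.

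Prps1 encodes PRPP synthetase, which makes the PRPP that the pathway consumes. It read 101, 75.8 and 102 CPM in untreated libraries, so that untreated replicate 2 was well below the other two. With Piericidin it read 57.0, 64.1 and 60.7 CPM, all below the untreated range (log2 fold change -0.61 ± 0.15, adjusted p = 0.00385). With AntimycinA it read 80.7, 76.8 and 65.3 CPM and was not called (-0.32 ± 0.15, adjusted p = 0.152). With 3-NPA it read 109, 88.3 and 96.1 CPM (0.08 ± 0.14, adjusted p = 0.849).

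Adsl, which acts both in the IMP route and in the step from IMP to AMP, was the gene called under all 3 inhibitors. Its untreated libraries read 177, 146 and 176 CPM. Piericidin libraries read 105, 103 and 122, 3-NPA libraries 119, 102 and 123, and AntimycinA libraries 122, 112 and 113, all below the untreated range. The log2 fold changes were close to each other, at -0.60 ± 0.12 (adjusted p = 0.000541), -0.53 ± 0.12 (adjusted p = 0.00772) and -0.52 ± 0.12 (adjusted p = 0.00163). The 3-NPA call was lost without untreated replicate 1 (adjusted p = 0.0661), untreated replicate 3 (adjusted p = 0.0565) or 3-NPA replicate 2 (adjusted p = 0.0745).

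The remaining members are Ppat, the amidotransferase of the committed first step, Pfas, the FGAM synthase, and Atic, which adds the last formyl group and closes the ring. Ppat read 148 to 192 CPM untreated, 111 to 138 with Piericidin and 86.4 to 134 with AntimycinA, and fell in both (log2 fold changes -0.48 ± 0.14, adjusted p = 0.0136, and -0.55 ± 0.14, adjusted p = 0.00361). Its Piericidin call was lost without untreated replicate 2 (adjusted p = 0.0985), Piericidin replicate 2 (0.0757) or Piericidin replicate 3 (0.0783), and its AntimycinA call without AntimycinA replicate 3 (0.0689). Pfas read 165 to 179 CPM untreated, 114 to 148 with Piericidin and 102 to 117 with AntimycinA. It fell in both (-0.35 ± 0.12, adjusted p = 0.0363, and -0.66 ± 0.12, adjusted p = 5.74e-05). The Piericidin call of Pfas was lost without the filter on low counts (adjusted p = 0.0506), without any 1 of the 3 untreated libraries (adjusted p = 0.0569 to 0.107) and without Piericidin replicate 3, where the log2 fold change was -0.23 (adjusted p = 0.283). Atic read 277 to 299 CPM untreated, 175 to 232 with Piericidin and 173 to 239 with AntimycinA, and fell in both (-0.51 ± 0.11, adjusted p = 0.000817, and -0.47 ± 0.11, adjusted p = 0.00129).

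Whether the inhibitors differ from each other was tested directly in the same fit, in 3 pairs of inhibitors. The doses are those of the labels, and the complexes blocked differ. Between AntimycinA and Piericidin none of the 10 genes was called, against 0.736% of genes tested (0.436% higher, 0.299% lower; edgeR; 2 members and 1227 of 11689 genes had an unadjusted p under 0.05, and DESeq2 also called no member). The widest difference was that of Pfas, at -0.31 with a 95% interval from -0.54 to -0.08 (adjusted p = 0.283). For Paics the difference was -0.09, with an interval from -0.30 to 0.12. Gart in this pair was called only without AntimycinA replicate 1 (-0.48, adjusted p = 0.0364).

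Between AntimycinA and 3-NPA, 2 of 10 genes were lower with AntimycinA, against 3.98% of genes called (1.60% higher, 2.38% lower). They were Paics, at -0.46 ± 0.11 (adjusted p = 0.00734), and Gart, at -0.40 ± 0.12 (adjusted p = 0.0364). The Gart groups overlap, since AntimycinA replicate 1 at 228 CPM lies above 3-NPA replicate 3 at 215. The Paics call was lost without 3-NPA replicate 1 (adjusted p = 0.0717), and the Gart call without 3-NPA replicate 1 (0.142) or 2 (0.0813) or AntimycinA replicate 2 (0.190) or 3 (0.256). Without AntimycinA replicate 1, Atic (adjusted p = 0.0382) and Gmps (0.0266) were called as well. Gmps was also called without the filter on low counts (adjusted p = 0.0482) and with the replicate block (0.0391). The difference for Adsl was 0.01, with an interval from -0.23 to 0.25.

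Between Piericidin and 3-NPA, 2 of 10 genes were lower with Piericidin, against 4.29% (1.87% higher, 2.43% lower). Prps1 differed by -0.69 ± 0.15 (adjusted p = 0.00395), and its 3 Piericidin libraries lay below all 3 of 3-NPA. Paics differed by -0.37 ± 0.11 (adjusted p = 0.0370), with overlapping groups. That call was lost in a fit of these 2 groups alone (adjusted p = 0.0639) and without Piericidin replicate 2 (0.116) or 3 (0.242) or 3-NPA replicate 1 (0.189) or 3 (0.134). Without Piericidin replicate 1, Atic (adjusted p = 0.0272) and Impdh2 (0.0223) were called too, and Atic also with the replicate block (0.0472).

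**Figure D2:**
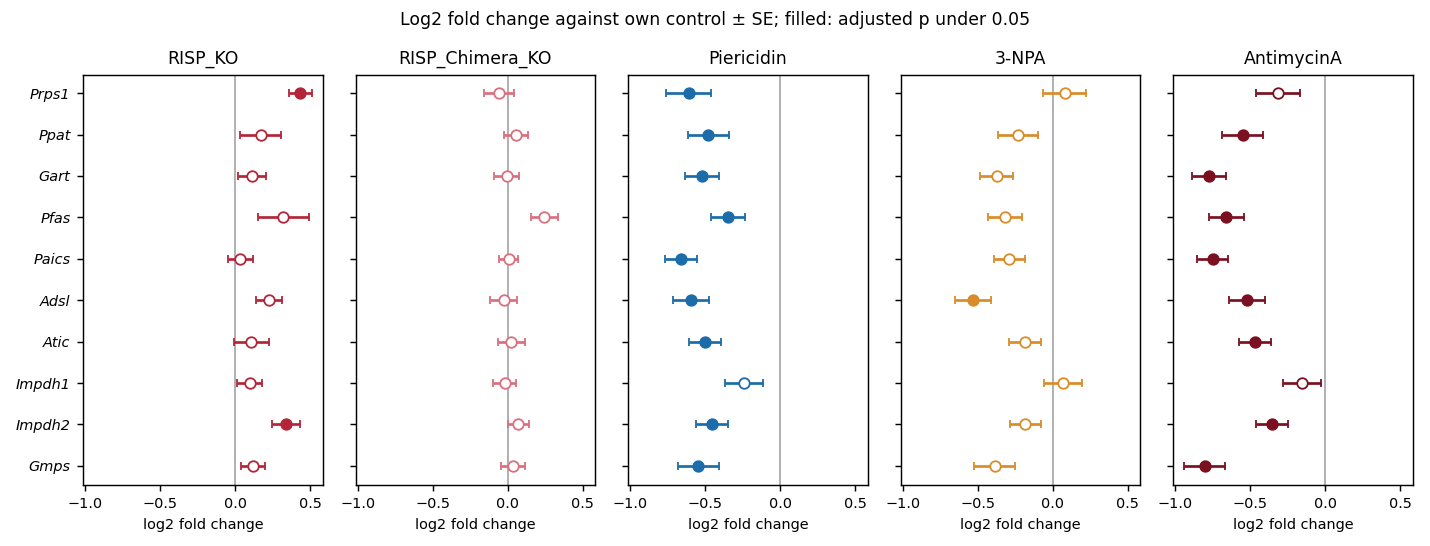
Log2 fold change of the 10 genes against the control of the same table, ± SE, in the 2 knockout comparisons (n = 4 against 4) and the 3 inhibitor comparisons (n = 3 against 3). Filled points have an adjusted p under 0.05. With Piericidin and AntimycinA every point is left of 0, from -0.24 to -0.66 and from -0.16 to -0.81, and in RISP_KO every point is right of 0, from 0.03 to 0.43.

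Genes that feed or neighbour the pathway were read from fixed lists in the same fits. Beside the counts that follow, 7.93% of all genes tested fell with Piericidin, 8.50% with AntimycinA and 1.87% with 3-NPA. Of 10 genes that supply PRPP, 1 fell with Piericidin and with AntimycinA, the transketolase Tkt (-0.40 ± 0.09, adjusted p = 0.00121, and -0.56 ± 0.09, adjusted p = 8.76e-06), and none rose. With 3-NPA none of the 10 was called. Of 10 tested genes that convert IMP to AMP or interconvert purine nucleotides, 3 fell with Piericidin, 3 with AntimycinA and 1 with 3-NPA. Among them was the nucleoside diphosphate kinase Nme1 (-0.70 ± 0.14 with Piericidin, -0.75 ± 0.14 with AntimycinA and -0.65 ± 0.14 with 3-NPA).

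Salvage enzymes recycle ready-made purine bases and nucleosides. Of 6 tested salvage genes, 2 fell with Piericidin, Dck (-0.54 ± 0.17, adjusted p = 0.0237) and Ada (-0.96 ± 0.33, adjusted p = 0.0481), and none with AntimycinA or 3-NPA. None of 5 tested breakdown genes was called under any of the inhibitors. Hprt, the main salvage enzyme for hypoxanthine and guanine, had a log2 fold change of -0.15 ± 0.12 with 3-NPA (adjusted p = 0.570). The difference in counts between these lists and the members was not tested.

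Folate enzymes carry the formyl groups used by Gart and Atic. Of 15 tested one-carbon genes, 4 fell with Piericidin, 6 with AntimycinA and 3 with 3-NPA, and none rose. The serine synthesis enzyme Phgdh fell with Piericidin (-0.49 ± 0.11, adjusted p = 0.00204), AntimycinA (-0.74 ± 0.11, adjusted p = 6.74e-06) and 3-NPA (-0.48 ± 0.11, adjusted p = 0.0107). Mthfd1l, a mitochondrial formate producer, fell by 0.44 ± 0.10 with 3-NPA (adjusted p = 0.00634).

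Pyrimidine synthesis had 5 of 8 genes lower with Piericidin and with AntimycinA, and none called with 3-NPA. Cad, the enzyme of its first 3 steps, fell in both (-0.62 ± 0.10, adjusted p = 3.39e-05, and -0.54 ± 0.10, adjusted p = 0.000139). Of 4 genes of deoxynucleotide supply, Rrm1 and Rrm2, subunits of ribonucleotide reductase, fell under all 3 inhibitors and the other two were not called. The log2 fold change of Rrm2 was -1.89 ± 0.18 with Piericidin (adjusted p = 5.78e-09), -2.19 ± 0.19 with AntimycinA (adjusted p = 2.64e-11) and -0.84 ± 0.17 with 3-NPA (adjusted p = 0.00309).

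Genes of DNA replication and mitosis moved in the same libraries as the purine genes, and by more. Of 25 replication genes, 24 fell with Piericidin (median log2 fold change -0.91), 25 with AntimycinA (-1.15) and 11 with 3-NPA (-0.53). Of 25 mitosis genes, 25 fell with Piericidin (median -1.46), 25 with AntimycinA (-2.02) and 8 with 3-NPA (-0.61). Mki67, a marker of cycling cells, fell with Piericidin (-1.37 ± 0.15, adjusted p = 4.73e-08), AntimycinA (-2.04 ± 0.16, adjusted p = 1.41e-12) and 3-NPA (-0.63 ± 0.15, adjusted p = 0.0104). The summed level of the mitosis list was 2144 to 2488 CPM untreated, 646 to 923 with Piericidin, 326 to 756 with AntimycinA and 1268 to 1736 with 3-NPA. The summed level of the 10 purine genes was 1962 to 2078 CPM untreated, 1342 to 1574 with Piericidin, 1269 to 1459 with AntimycinA and 1585 to 1784 with 3-NPA. The part of the cell cycle genes in the change of the purine genes was not tested.

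**Figure D3:**
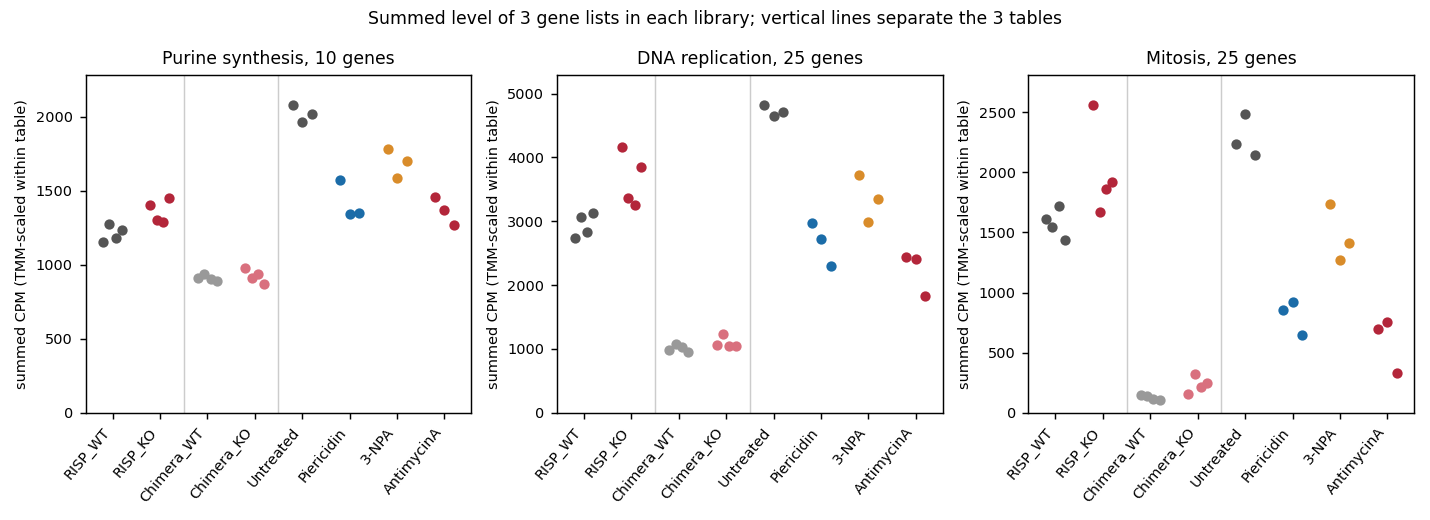
Summed CPM (TMM-scaled within each table, linear axes from 0) of the 10 purine synthesis genes, 25 DNA replication genes and 25 mitosis genes in each of the 28 libraries. Vertical lines separate the 3 tables, between which levels are not comparable. In vitro all 3 sums are highest in untreated cells and lowest in the AntimycinA and Piericidin groups. The purine sums of RISP_KO lie above those of RISP_WT, and in chimeras the mitosis sums of the knockout (156 to 322) lie above those of the wild type (109 to 148) while the purine sums overlap.

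Among 7 tested regulators of the pathway or of growth, Myc fell with Piericidin and AntimycinA. It read 327 to 372 CPM untreated, 189 to 249 with Piericidin and 226 to 282 with AntimycinA, and the groups do not overlap. The log2 fold changes were -0.65 ± 0.10 (adjusted p = 1.57e-05) and -0.50 ± 0.10 (adjusted p = 0.000394). With 3-NPA it read 336 to 388 CPM (0.04 ± 0.10, adjusted p = 0.884). Mxi1, a MYC antagonist, rose with Piericidin (0.77 ± 0.20, adjusted p = 0.00661) and AntimycinA (0.86 ± 0.20, adjusted p = 0.00176), and Max, the MYC partner, fell in both. Atf4, a stress-induced activator of amino acid and one-carbon genes, fell with 3-NPA (-0.39 ± 0.10, adjusted p = 0.0302). It was higher with AntimycinA and with Piericidin than with 3-NPA in the direct tests (0.43 ± 0.10, adjusted p = 0.00963, and 0.48 ± 0.10, adjusted p = 0.00425). Against untreated cells Atf4 was not called with AntimycinA (0.05 ± 0.10, adjusted p = 0.821) or Piericidin (0.09 ± 0.10, adjusted p = 0.630).

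Markers of other cell types bear on the in vitro comparison as follows. The B cell gene Ms4a1 was at 0 in all 12 libraries. The macrophage gene Adgre1 was at 0 in 11 of them and at 0.610 CPM at most. The natural killer list summed to at most 1.76 CPM. The macrophage list, with 6 to 8 of 10 genes at 0, summed to 15.2 to 23.6 CPM over the 4 groups, of which Csf1r made up 8.93 to 19.8. The dendritic cell list summed to 6.99 to 23.2 CPM, the CD8 T cell list to 5.52 to 21.1 and the plasma cell list to 31.7 to 60.2. The B cell list summed to 490 to 549 CPM untreated, 274 to 291 with Piericidin, 316 to 461 with 3-NPA and 344 to 437 with AntimycinA. Nearly all of it was Ighm, which read 478 to 543 CPM untreated.

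The second question is what loss of RISP did to the same genes in Treg cells taken from mice. In RISP_KO of 3-week-old mice, 2 of the 10 genes rose and none fell, against 9.86% of 13832 genes tested (4.78% higher, 5.08% lower). All 10 log2 fold changes were above 0, with a median of 0.14 beside 0.00 over all genes tested. In 2 of the 10 genes every RISP_KO library lay above every RISP_WT library, against 7.89% of all genes tested, and in the other 8 the genotypes overlapped.

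Prps1 read 117, 110, 111 and 114 CPM in RISP_WT and 139, 149, 155 and 166 in RISP_KO. Every knockout library lay above every wild-type one. Prps1 rose by 0.43 ± 0.08 on the log2 scale (1.35-fold, adjusted p = 0.00551), and the call held without each library in turn. Impdh2 read 76.1, 84.3, 79.0 and 89.5 CPM in RISP_WT against 110, 106, 90.2 and 109 in RISP_KO, also without overlap but with less than 1 CPM between the nearest libraries. It rose by 0.34 ± 0.09 (1.26-fold, adjusted p = 0.0426). This call was lost without any 1 of the 4 RISP_WT libraries or of RISP_KO replicates 1, 2 and 4 (adjusted p = 0.0524 to 0.122), and without the filter on low counts (adjusted p = 0.0684). It was also lost with the replicate block.

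**Figure D4:**
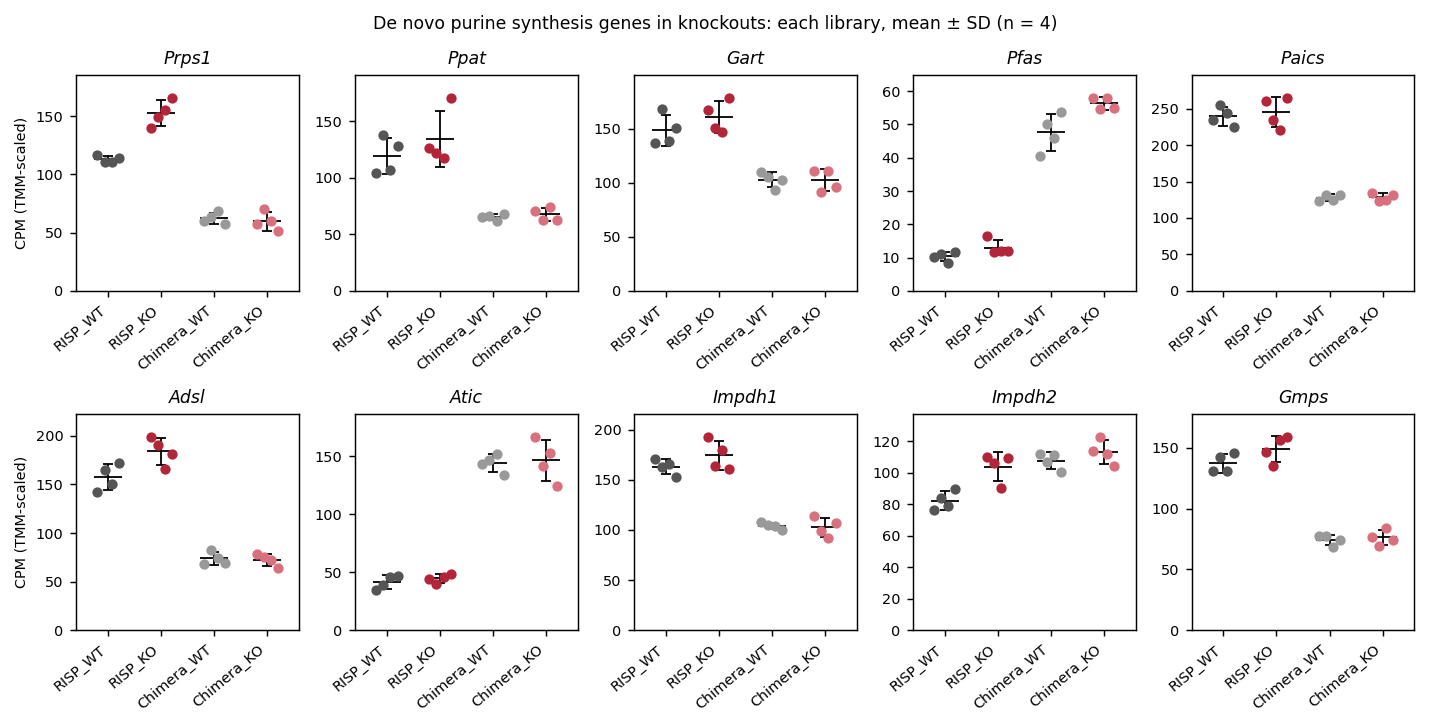
CPM (TMM-scaled within each table, linear axis from 0) of each of the 10 genes in the 16 libraries of the 2 knockout tables. Points are libraries, bars the mean ± SD (n = 4). RISP_KO points lie above all RISP_WT points for Prps1 and Impdh2, and the chimera groups overlap in every panel but Pfas (3.39% of all genes tested lie higher in the chimera knockout without overlap).

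The other 8 members were not called in RISP_KO. Adsl read 142 to 172 CPM in RISP_WT and 166 to 199 in RISP_KO (0.22 ± 0.09, adjusted p = 0.140). Pfas read 8.38 to 11.6 and 11.6 to 16.4 CPM (0.32 ± 0.17, adjusted p = 0.270), where RISP_KO replicate 1 is the high library. Ppat read 105 to 138 and 117 to 171 CPM (0.17 ± 0.14, adjusted p = 0.479), with RISP_KO replicate 4 the highest. Gart (0.11 ± 0.10), Gmps (0.12 ± 0.08), Atic (0.11 ± 0.12) and Impdh1 (0.10 ± 0.08) had adjusted p from 0.396 to 0.626. Paics, which had the smallest p of the 10 with both Piericidin and AntimycinA, read 225 to 255 CPM in RISP_WT and 221 to 265 in RISP_KO (0.03 ± 0.08, 95% interval -0.13 to 0.20, adjusted p = 0.838).

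Among neighbouring genes in RISP_KO, the one-carbon list had 5 of 15 higher and none lower, with a median of 0.38. Beside this and the list counts that follow, 4.78% of all genes tested rose and 5.08% fell. Shmt2, the mitochondrial serine hydroxymethyltransferase, rose by 1.00 ± 0.13 (adjusted p = 0.00127), Mthfd2, a mitochondrial methylenetetrahydrofolate dehydrogenase, by 0.72 ± 0.11 (adjusted p = 0.00217) and Phgdh by 0.73 ± 0.13 (adjusted p = 0.00564). Of 10 PRPP supply genes and 5 breakdown genes none was called. Of 6 salvage genes 1 rose, the adenosine deaminase Ada (0.51 ± 0.13, adjusted p = 0.0323). Of 12 interconversion genes 2 rose, among them Ampd2 (0.32 ± 0.09, adjusted p = 0.0423), and the AMP deaminase Ampd1 fell by 1.34 ± 0.22 (adjusted p = 0.00398). In pyrimidine synthesis Cad (0.70 ± 0.10, adjusted p = 0.00200) and Ctps (0.55 ± 0.12, adjusted p = 0.0160) rose and Ctps2 fell by 0.37 ± 0.07 (adjusted p = 0.0111), of 8 tested.

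Of 25 replication genes 10 rose, with a median of 0.38, led by Pole (0.72 ± 0.10, adjusted p = 0.00131), and of 25 mitosis genes 2 rose, Top2a (0.50 ± 0.10, adjusted p = 0.00959) and Nuf2 (0.48 ± 0.12, adjusted p = 0.0261). Of 4 genes of deoxynucleotide supply 1 rose, Rrm1 (0.31 ± 0.07, adjusted p = 0.0239). Of 7 regulators 1 rose and 1 fell. Myc rose from 183 to 305 CPM in RISP_WT to 353 to 451 in RISP_KO (0.62 ± 0.14, adjusted p = 0.0215), without overlap, and Rptor, a subunit of the growth kinase complex mTORC1, fell by 0.40 ± 0.10 (adjusted p = 0.0242). Markers of other cell types differed between these groups. The macrophage list (10 genes) summed to 9.41 to 46.1 CPM in RISP_WT and 4.19 to 10.3 in RISP_KO. Adgre1 read 0.973 to 4.02 CPM in RISP_WT against 0 to 0.392 in RISP_KO. The B cell list summed to 777 to 958 CPM in RISP_WT and 586 to 777 in RISP_KO. Of its 7 tested genes 1 fell, Cd79b (-0.84 ± 0.14, adjusted p = 0.00472), and none rose. Of 3 tested dendritic cell genes 1 fell, Xcr1 (-1.69 ± 0.42, adjusted p = 0.0278), and none rose. The natural killer list (4 genes) summed to 5.10 to 8.62 CPM in RISP_WT and 41.6 to 61.2 in RISP_KO, mostly from Gzma (22.1 to 48.7 CPM in RISP_KO) and Eomes (7.86 to 19.4), while Klrb1c read 2.59 to 5.22 and 1.71 to 4.56. The part of these markers, and of the replication genes, in the changes of Prps1 and Impdh2 was not tested.

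In RISP_Chimera_KO none of the 10 genes was called, against 0.708% of 14399 genes tested (0.167% higher, 0.542% lower; edgeR; 1 member and 1859 genes had an unadjusted p under 0.05, and DESeq2 also called no member). The median log2 fold change of the 10 was 0.02. Prps1 read 59.7, 63.7, 68.4 and 57.0 CPM in RISP_Chimera_WT and 57.0, 70.6, 59.9 and 51.4 in RISP_Chimera_KO (-0.06 ± 0.10, 95% interval -0.26 to 0.14). Impdh2 read 100 to 112 and 104 to 123 CPM (0.07 ± 0.07, interval -0.07 to 0.21). Pfas was the member with the smallest p. It read 40.5, 50.2, 45.9 and 53.8 CPM against 57.9, 54.6, 58.0 and 54.9, without overlap but with less than 1 CPM between the nearest libraries (0.24 ± 0.09, adjusted p = 0.285). For the other 7 genes the log2 fold changes lay between -0.03 and 0.05.

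No gene of the PRPP, interconversion, salvage, breakdown, one-carbon, pyrimidine, deoxynucleotide or regulator lists was called in the chimeras either. Beside this and the list counts that follow, 0.708% of all genes tested were called (0.167% higher, 0.542% lower). Shmt2 read a log2 fold change of 0.30 ± 0.09 (adjusted p = 0.177) and Cad 0.28 ± 0.09 (adjusted p = 0.216). Myc, which rose in RISP_KO, read -0.34 ± 0.11 in the chimeras (adjusted p = 0.225). Of 25 mitosis genes 1 rose, Cenpe (1.02 ± 0.20, adjusted p = 0.0393), with all 25 above 0 and a median of 1.03, and of 25 replication genes 1 rose, Lig1 (0.51 ± 0.10, adjusted p = 0.0421). In these libraries the macrophage list summed to 23.9 to 58.3 CPM in RISP_Chimera_WT and 30.4 to 89.1 in RISP_Chimera_KO.

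Whether the knockout effect differed between chimeras and 3-week-old mice was tested as an interaction over the 16 libraries. Prps1 was called, with a lower effect in chimeras (difference -0.51 ± 0.13 on the log2 scale, adjusted p = 0.0379), and no other member was, against 3.27% of 15580 genes tested (1.23% higher, 2.04% lower). The call was lost without the filter on low counts (adjusted p = 0.0959) and with the replicate block. It was also lost without any 1 of 12 of the 16 libraries (adjusted p = 0.0512 to 0.0933). These were the 4 of RISP_WT, RISP_KO replicates 2, 3 and 4, RISP_Chimera_WT replicates 2 and 3, and RISP_Chimera_KO replicates 1, 3 and 4. For Impdh2 the difference was -0.29 ± 0.12 (adjusted p = 0.224). Kit, age and chimerism differ together between the 2 tables and cannot be told apart.

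The members were also compared with all other genes by their 5 log2 fold changes (2 knockouts, 3 inhibitors). Likeness was the root mean square difference from the median profile of the 10 genes, over the 8085 genes with enough counts in all 3 tables. Ppat (0.03) and Atic (0.05) lay nearest to that profile, and Prps1 (0.23) and Impdh1 (0.26) farthest from it among the members. The remaining members lay between 0.12 (Gart) and 0.16 (Pfas). The 5 nearest genes outside the pathway were Eif3b (0.03), Srsf4 (0.05), Cox5a (0.05), Ppm1f (0.05) and Hjurp (0.06). These 5 lay nearer to the profile than every member but Ppat and Atic, so the profile is not particular to the pathway. Eif3b, for example, had log2 fold changes of 0.16 in RISP_KO, -0.04 in RISP_Chimera_KO, -0.50 with Piericidin, -0.26 with 3-NPA and -0.49 with AntimycinA. This ranking is a description, and the inhibitor comparisons in it share the untreated libraries.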

How the data were processed

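RNA was measured in 28 libraries of sorted mouse Treg cells, in groups taken from the sample labels. The deposited tables hold raw read counts per Ensembl gene. Per the submitters' processing notes, the authors used bcl2fastq, TopHat, HTSeq and edgeR with build mm10, and the strand setting is not given in the sources used here. Per the labels' protocols, the 3-week libraries were made with a Takara kit and the others with an NEB kit. A further table with 11 per-sample columns that match no label was not used.

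Tests ran in R 4.3.3 with edgeR 4.0.16 (filterByExpr by group, TMM, quasi-likelihood F-test) and, as an alternative, DESeq2 1.42.0, in the 2 knockout tables separately, jointly for the 12 in vitro libraries and, for the interaction, jointly for the 16 libraries of both knockout tables. The threshold was a Benjamini-Hochberg adjusted p of 0.05 over all genes tested, and the SE is the log2 fold change divided by the square root of F. The 95% intervals are normal intervals around the log2 fold change. The scripts were tested on simulated data. No 2 libraries of the same group were duplicates.

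All 10 members are named in every comparison, and of each neighbouring list up to 3 called genes with the smallest p, or up to 2 uncalled ones. Likeness used genes whose mean log2 CPM reached 3 in each table (prior count 2). The members and lists were chosen with earlier results of these data known. Alternatives were DESeq2, RLE size factors, no filter, a 1 CPM filter, the replicate block, separate fits for each pair of in vitro groups, and the omission of single libraries. Values in CPM per kb use GENCODE M21 lengths, and promoter windows come from RefSeq. Some genes of the neighbouring and marker lists are counted in their lists but not reported here by name.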

Additional observations from a re-analysis of the deposited data

Results flagged for a closer look

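In RISP_KO, Ppat read 170.8 CPM in replicate 4 against 117.4 to 126.1 in the other 3 libraries, and the gap to the nearest of them was 0.837 of the range of the group. In the same group Pfas read 16.44 CPM in replicate 1 against 11.57 to 11.94, a gap of 0.924 of the range. Both gaps lie beyond Dixon's 95% critical value for 4 samples. This was examined for 40 sets of 4 libraries (10 genes in 4 groups), and chance passes about 1 in 20. The effect of the knockout on Prps1 differed between chimeras and 3-week-old mice by -0.513 on the log2 scale in the test of the difference itself (edgeR, adjusted p = 0.0379). That call was lost in 12 of the 16 fits that each left out 1 library. Kit, age and chimerism differ together in this contrast and cannot be told apart.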

How the results depend on the processing

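Counts of members called under DESeq2, RLE size factors and a 1 CPM filter equalled those reported in all 9 comparisons. Without the filter on low counts, 1 member was called in RISP_KO, 8 with Piericidin, 2 with 3-NPA, 3 between AntimycinA and 3-NPA and 0 in the interaction. In fits of only the 2 groups compared, 2 were called with 3-NPA and 1 between Piericidin and 3-NPA. Replicate numbers were not taken to pair the libraries, since no table had every correlation above 0.1. Correlations of same-numbered deviations were -0.041 to 0.029 in the 3-week table and -0.102 to 0.127 in the chimera table. In vitro all 18 were above 0, at 0.004 to 0.09, where differently numbered libraries gave -0.082 to 0.027. The cutoff of 0.1 cannot tell whether the in vitro libraries were paired. With the replicate block, 1 member was called in RISP_KO, 3 with 3-NPA (Adsl, Gart and Gmps), 3 between AntimycinA and 3-NPA, 3 between Piericidin and 3-NPA and 0 in the interaction, and the genes called were 895 in RISP_KO and 324 in the interaction, beside 1364 and 509. DESeq2 called 2068 genes in RISP_KO, 446 in the chimeras and 854 in the interaction, and without the filter 208 were called in the chimeras, beside 102. The cause of these differences was not tested.

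Leaving out each library gave 787 to 1486 genes in RISP_KO (787 without RISP_WT replicate 1, 788 without replicate 3) and 33 to 177 in the chimeras, which moved by over 1.5 times without each library but RISP_Chimera_KO replicate 4. It gave 1009 to 1628 with Piericidin, 130 to 423 with 3-NPA, 1261 to 1849 with AntimycinA, 43 to 96 for AntimycinA against Piericidin, 188 to 542 for AntimycinA against 3-NPA, 230 to 523 for Piericidin against 3-NPA and 323 to 627 in the interaction. Members called ranged over 1 to 2 in RISP_KO, 0 in chimeras, 7 to 9 with Piericidin, 0 to 2 with 3-NPA, 7 to 8 with AntimycinA, 0 to 1 for AntimycinA against Piericidin, 0 to 4 for AntimycinA against 3-NPA, 1 to 4 for Piericidin against 3-NPA and 0 to 1 in the interaction. The libraries concerned are named beside each gene in the report.

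No called member changed sign. Of uncalled log2 fold changes, that of Adsl between AntimycinA and 3-NPA was -0.011 with a 1 CPM filter, and that of Paics in the interaction 0.002 without the filter. Leaving out libraries also turned the sign of values near 0. In chimeras these were Prps1 (-0.149 to 0.007), Gart (-0.051 to 0.044), Paics (-0.016 to 0.027), Adsl (-0.068 to 0.035), Atic (-0.044 to 0.094), Impdh1 (-0.070 to 0.032) and Gmps (-0.016 to 0.076). In RISP_KO it was Paics (-0.004 to 0.082), and with 3-NPA Prps1 (-0.049 to 0.156). For AntimycinA against Piericidin they were Ppat (-0.203 to 0.092), Paics (-0.203 to 0.014), Atic (-0.085 to 0.147) and Impdh1 (-0.004 to 0.194). The others were Adsl for AntimycinA against 3-NPA (-0.086 to 0.051), Pfas for Piericidin against 3-NPA (-0.110 to 0.079), and Pfas (-0.173 to 0.042) and Ppat (-0.193 to 0.004) in the interaction. The in vitro libraries were the shallowest, at 2.71 to 3.45 M counts.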
